A study of Mus musculus with 4 samples.

Results

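Transcription factors that set the identity of lung and liver were followed through a single-cell RNA sequencing data set of mouse fetal cells labelled as lung. The group held 9 of the 31053 genes in the deposited count matrix, chosen by name and all of them detected: Nkx2-1, Foxa1, Foxa2, Tbx4 and Tbx5, which act in the lung, and Hnf4a, Prox1, Hhex and Cebpa, which act in the liver. Foxa1 and Foxa2 belong to both organs.

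The study held 4 libraries of 10x Chromium droplet data with unique molecular identifiers (UMIs), 1 library per group. Fetuses of every group were labelled Cyp27a1-/-, so they lacked the sterol 27-hydroxylase that makes 27-hydroxycholesterol and serves bile acid synthesis, and what differed was the mother. The groups were E18.5 fetuses of a Cyp27a1-/- mother, E18.5 fetuses of a Cyp27a1+/- mother, E14.5 fetuses of a Cyp27a1-/- mother and E14.5 fetuses of a Cyp27a1+/- mother, called null and het mother here, or null and het beside values. The comparison asks whether the genotype of the mother, at a fixed genotype of the fetus, goes with a difference in fetal cells. The labels give neither the number of fetuses or litters behind a library nor whether cells were pooled, and the E18.5 library of the het mother carries a wild-type tag in its title that its genotype label does not. Minced tissue was digested with collagenase and dispase and red cells were lysed, per the labels' protocols. With 1 library per group there is no replicate check and no test between groups, and all intervals are exact 95% intervals that cover counting error only.

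The lung epithelium and the liver both bud from the foregut endoderm. FOXA1 and FOXA2, forkhead proteins that open closed chromatin, prepare that endoderm for both fates. NKX2-1 then marks the lung (and thyroid) part, HHEX and PROX1 drive the outgrowth of the liver bud, HNF4A and C/EBPα maintain hepatocyte gene expression, and TBX4 and TBX5 work in the mesenchyme around the lung bud, where they support the branching signal FGF10.

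At E18.5 the libraries held 16517 (null mother) and 17034 (het mother) cells, with 118054232 (null) and 97894048 (het) UMIs and medians of 4848 (null) and 3782.5 (het) UMIs per cell. At E14.5 they held 4843 (null) and 4957 (het) cells, with 53293964 (null) and 47005276 (het) UMIs and medians of 6387 (null) and 3697 (het) UMIs per cell. Any 2 libraries shared 93 to 164 cell barcodes, at most 3.12% of a library. Marker genes of both E18.5 libraries spoke against lung as their tissue. Summed over 8 hepatocyte markers they had 27189 (null mother) and 8782 (het mother) UMIs per 1000000 UMIs of the library (CPM), against 2.01 (null) and 2.81 (het) CPM at E14.5. All 8 markers were found in both E18.5-labelled libraries, and 7 of 8 in each E14.5 library, where Apob (null mother) and Fga (het mother) were at 0. The 8 mesenchyme markers summed to 70.9 (null) and 77.8 (het) CPM at E18.5, against 2686 (null) and 2861 (het) CPM at E14.5. Of the 5 distal lung epithelial markers all were detected in every library, at 137 (null) and 111 (het) CPM in sum at E18.5 and 1543 (null) and 376 (het) CPM at E14.5, and the lowest, Etv4, had 3 (null) and 11 (het) UMIs at E18.5. The text therefore calls these libraries E18.5-labelled.

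Genomic positions follow GENCODE M21 on GRCm38, the build named as mm10 in the submitters' processing notes. Nkx2-1 (ENSMUSG00000001496) spans chr12:56531958-56536908 and Foxa1 (ENSMUSG00000035451) chr12:57540628-57546916, both on the minus strand. Foxa2 (ENSMUSG00000037025) lies at chr2:148042877-148046969 on the minus strand. Tbx4 (ENSMUSG00000000094) is at chr11:85886422-85916097 and Tbx5 (ENSMUSG00000018263) at chr5:119832668-119885219, both on the plus strand. Hnf4a (ENSMUSG00000017950) covers chr2:163506808-163572910 on the plus strand, Prox1 (ENSMUSG00000010175) chr1:190118035-190170714 on the minus strand, Hhex (ENSMUSG00000024986) chr19:37434810-37440731 on the plus strand and Cebpa (ENSMUSG00000034957) chr7:35119293-35121928 on the plus strand. Antisense genes overlap 4 of the loci, and whether reads were counted by strand is not given in the sources used here. The most abundant of them was Prox1os, with 229 (null) and 112 (het) UMIs at E18.5 and 17 (null) and 15 (het) UMIs at E14.5, while the others had 12 UMIs or fewer in any library.

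By symbol, 8 of the 9 factors matched RefSeq promoter entries (GRCm38.p6), 12 in all. The start meant below is that of the entry. The Foxa1 entry starts inside the gene span given above, so its window also lies within that span. The sequence just upstream of the start is shown for Nkx2-1 and Hnf4a (the upstream of its annotated starts), whose libraries of one age held almost none of their UMIs, for Foxa1, which was read in both organs, and for Cebpa, which was high in hepatocytes and myeloid cells alike. Each runs 5′ to 3′ on the strand of its gene, covers up to 250 bases before the start with exon bases left out, and has the motif matches in capitals.
Nkx2-1, chr12:56536909-56537158, minus strand: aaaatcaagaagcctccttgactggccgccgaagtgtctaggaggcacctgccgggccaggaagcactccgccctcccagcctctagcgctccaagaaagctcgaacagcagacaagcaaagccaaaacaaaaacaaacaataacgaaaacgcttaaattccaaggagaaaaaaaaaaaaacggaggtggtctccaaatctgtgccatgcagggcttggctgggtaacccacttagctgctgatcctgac
Foxa1, chr12:57546122-57546361, minus strand: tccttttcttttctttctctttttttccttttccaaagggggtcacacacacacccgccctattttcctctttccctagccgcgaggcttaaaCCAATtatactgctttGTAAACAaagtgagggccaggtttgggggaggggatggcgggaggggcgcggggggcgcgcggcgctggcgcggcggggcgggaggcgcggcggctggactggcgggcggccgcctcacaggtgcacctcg
Hnf4a, upstream start, chr2:163506607-163506807, plus strand: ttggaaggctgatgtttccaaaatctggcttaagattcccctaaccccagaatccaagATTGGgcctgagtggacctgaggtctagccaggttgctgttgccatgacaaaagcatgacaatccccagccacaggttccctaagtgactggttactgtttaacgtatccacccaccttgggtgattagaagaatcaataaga
Cebpa, chr7:35119043-35119292, plus strand: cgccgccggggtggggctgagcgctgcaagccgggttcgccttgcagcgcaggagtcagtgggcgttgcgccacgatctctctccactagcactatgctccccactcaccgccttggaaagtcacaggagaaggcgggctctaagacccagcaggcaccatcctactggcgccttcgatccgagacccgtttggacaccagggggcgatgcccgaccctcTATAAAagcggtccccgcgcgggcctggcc

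The motifs searched on both strands were the forkhead letters TGTTTAC and TGTTTGC, the HNF4 site CAAAGTCCA, the T-box core letters GGTGTGA, the CCAAT box and the TATA box (TATAAA). None overlapped another in the sequences shown. Foxa1 has a CCAAT box 157 bases before the internal start of its entry. The forkhead letters TGTTTAC, which 3.17% of 32851 promoters hold, lie 141 bases before that start on the opposite strand. The upstream start of Hnf4a has a CCAAT box 192 bases before it, on the opposite strand, and 33.8% of promoters have one. Cebpa has a TATA box 30 bases before its start (12.4% of promoters), and the Nkx2-1 window holds none of these letters. A match is a description of the letters, not a binding site. As background, the downstream start of Hnf4a predominates in adult liver and the upstream one in the pancreas. Counts from the 3′ ends of transcripts do not tell the starts apart.

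Across whole libraries Nkx2-1, Tbx4, Tbx5 and Hnf4a divided the ages almost completely. Nkx2-1 had 1 (null mother) and 4 (het mother) UMIs at E18.5, or 0.00847 (null) and 0.0409 (het) CPM, against 2804 (null) and 1935 (het) UMIs, or 52.6 (null) and 41.2 (het) CPM, at E14.5. Tbx4 had 4 (null) and 3 (het) UMIs at E18.5, against 2824 (null) and 2540 (het) UMIs, or 53.0 (null) and 54.0 (het) CPM, at E14.5. Tbx5 had 5 (null) and 4 (het) UMIs at E18.5, against 3543 (null) and 3305 (het) UMIs, or 66.5 (null) and 70.3 (het) CPM, at E14.5. These 3 genes were thus near absence in both E18.5-labelled libraries. Hnf4a, a nuclear receptor of hepatocytes and gut, was the mirror image, with 1544 (null) and 483 (het) UMIs [13.1 (null) and 4.93 (het) CPM] at E18.5 and 2 UMIs in each E14.5 library. The E18.5-labelled over E14.5 ratio of Hnf4a was 349 (interval 96.3 to 2880) with a null mother and 116 (31.9 to 960) with a het mother, both set by the 2 UMIs at E14.5.

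The other members were read at both ages. Foxa1 had 0.949 (null) and 0.337 (het) CPM at E18.5 [112 (null) and 33 (het) UMIs] and 11.1 (null) and 8.89 (het) CPM at E14.5. Foxa2 had 4.02 (null) and 1.24 (het) CPM at E18.5 and 20.7 (null) and 15.1 (het) CPM at E14.5. Both forkhead genes were lower at E18.5 with either mother. Prox1 had 10.3 (null) and 4.38 (het) CPM at E18.5 and 2.08 (null) and 4.70 (het) CPM at E14.5, so that only its null-mother libraries differed by more than 1.5-fold between the ages. Hhex had 43.3 (null) and 43.2 (het) CPM at E18.5 and 27.9 (null) and 13.7 (het) CPM at E14.5, and Cebpa had 33.5 (null) and 16.0 (het) CPM at E18.5 and 9.87 (null) and 5.85 (het) CPM at E14.5. A gene was taken as measured when the library of higher CPM held at least 50 of its UMIs. By a fold of 1.5, 4 members were higher and 5 lower at E18.5 with a null mother, and 3 were higher and 5 lower with a het mother. Of all genes measured, 66.8% (null mother) and 73.1% (het mother) passed 1.5-fold between the ages in either direction, so passing it sets no gene apart here. Age, tissue content and library cannot be told apart in this comparison. Within endothelium, where both ages had cells, the Hhex ratio was 0.738 (0.613 to 0.882) with a null mother and 1.27 (1.05 to 1.52) with a het mother, beside 51.6% (null) and 57.1% (het) of genes past 1.5-fold.

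**Figure D1:**
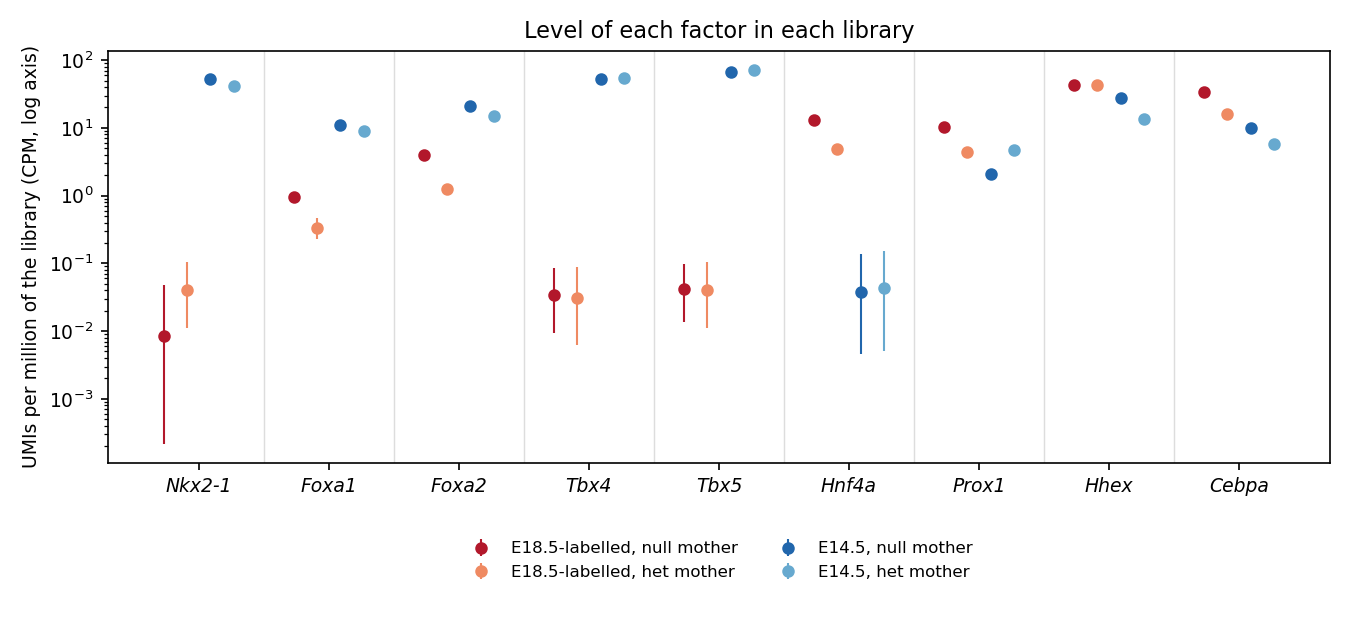
Level of each factor in each library, in CPM on a log axis; points are single libraries and bars are exact 95% counting intervals. Nkx2-1, Tbx4 and Tbx5 lie at 0.0424 CPM or less in both E18.5-labelled libraries and between 41.2 and 70.3 CPM at E14.5, and Hnf4a is reversed.

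To place the factors in cell types, each cell was put in a gate when at least 3 markers of a list were detected and made up at least 10 UMIs per 10000 of the cell (300 for the hepatocyte and neutrophil lists). Cells in exactly 1 of 13 major gates were used. No member is a gate marker, and the cell number is given beside gates that held under 50 cells. The no-gate share was 17.8% (null) and 17.2% (het) at E18.5 and 27.6% (null) and 32.2% (het) at E14.5, and cells in several gates made up 9.70% (null) and 6.52% (het) at E18.5 and 1.59% (null) and 1.55% (het) at E14.5.

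**Figure D2:**
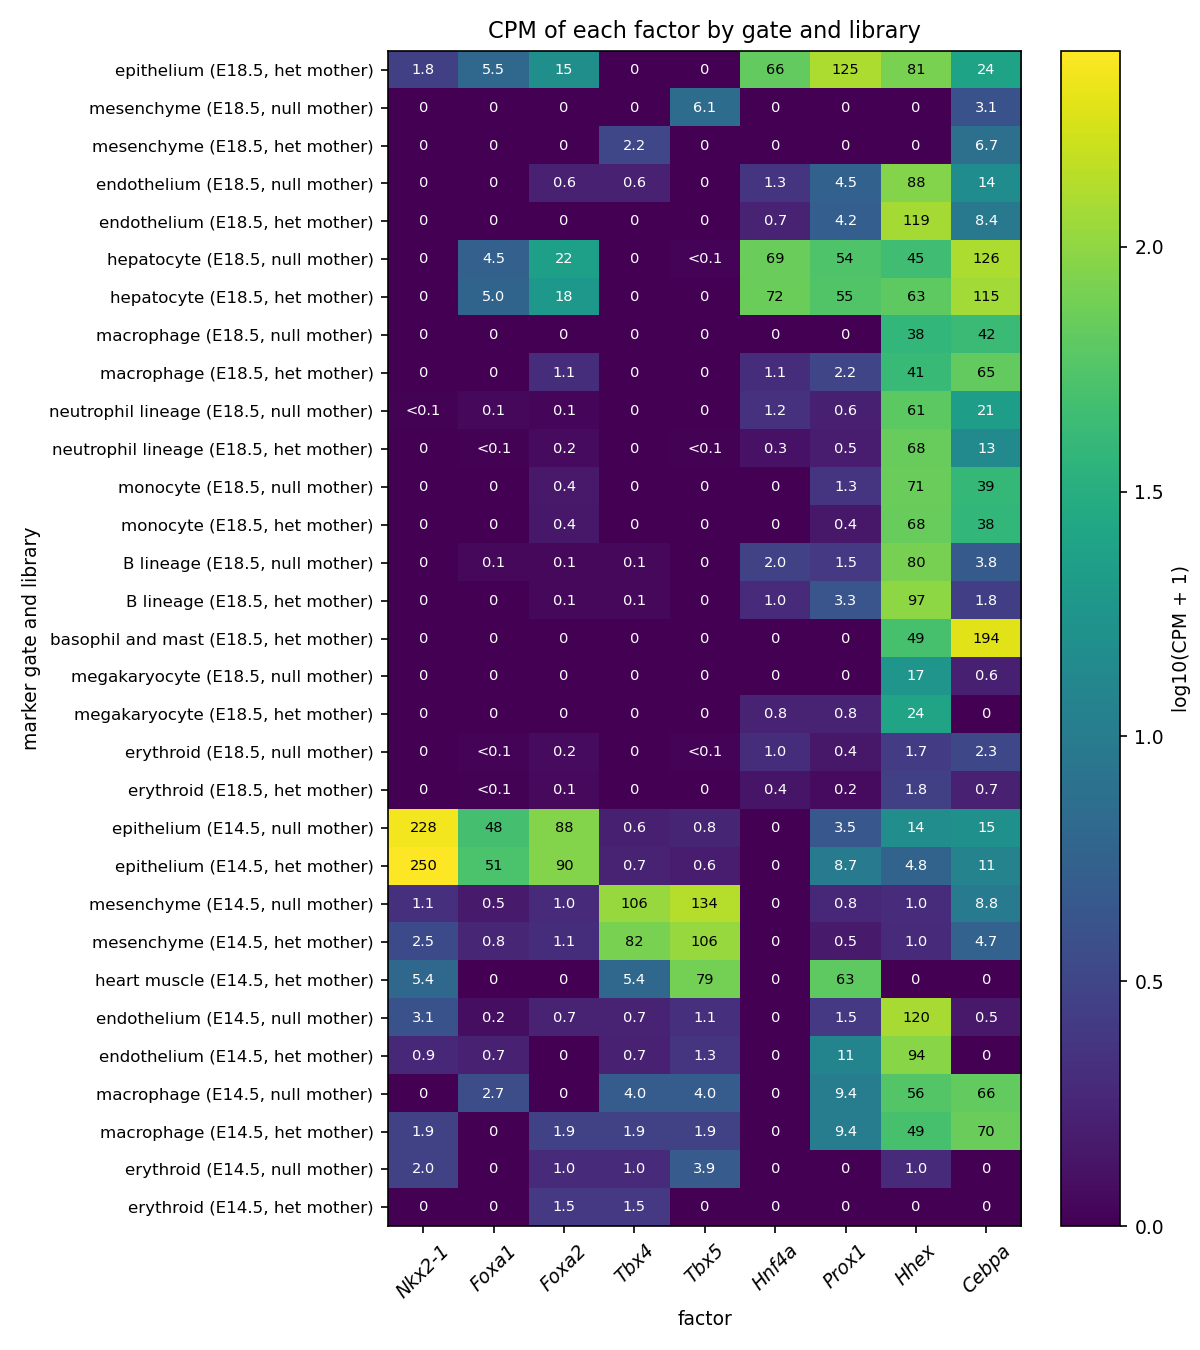
CPM of each factor (columns) in each marker gate and library with at least 50 cells (rows); colour is log10(CPM + 1) and the numbers are CPM. The block of Nkx2-1, Foxa1 and Foxa2 lies in E14.5 epithelium and that of Tbx4 and Tbx5 in E14.5 mesenchyme. That of Hnf4a and Prox1 lies in E18.5-labelled hepatocytes and epithelium. Hhex spreads over endothelium, several blood cell gates and E18.5-labelled hepatocytes and epithelium. Cebpa spreads over hepatocytes and myeloid cells. Prox1 also had 62.6 CPM in E14.5 heart muscle with a het mother.

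Nkx2-1 was an epithelial gene at E14.5. In the epithelium gate it had 228 CPM (219 to 237; 2599 UMIs in 564 cells) with a null mother and 250 CPM (239 to 262; 1785 UMIs in 378 cells) with a het mother. Epithelial cells held 92.7% (null) and 92.2% (het) of all its UMIs. At least 1 UMI was found in 81.4% (null) and 83.3% (het) of epithelial cells, at median depths of 20724.5 (null) and 20159 (het) UMIs. Mesenchyme, which should lack the gene, had a UMI in 1.23% (null) and 2.33% (het) of cells, at median depths of 11455.5 (null) and 10320.5 (het) UMIs. Thinned to 2000 UMIs per cell the epithelial shares were 34.7% (null) and 39.0% (het), and those of mesenchyme 0.341% (null) and 0.620% (het). At both depths the epithelial share lay far above that of mesenchyme. Within the epithelium, cells gated as distal lung [241 (null) and 136 (het) cells] had 241 (null) and 259 (het) CPM, and cells gated as proximal lung, only 26 (null) and 8 (het) of them, had 146 (null) and 168 (het) CPM.

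Foxa1 and Foxa2 lay in the same cells at lower levels. Foxa1 had 48.0 (null) and 51.4 (het) CPM and Foxa2 88.5 (null) and 89.9 (het) CPM in E14.5 epithelium, which held 92.7% (null) and 87.8% (het) of the Foxa1 UMIs and 91.2% (null) and 90.6% (het) of the Foxa2 UMIs. A Foxa1 UMI was found in 61.0% (null) and 60.6% (het) of epithelial cells with an Nkx2-1 UMI, and in 16.2% (null) and 11.1% (het) of those without. For Foxa2 the shares were 74.7% (null) and 72.7% (het) with Nkx2-1 and 21.9% (null) and 23.8% (het) without. Depth moved with this split: cells with Nkx2-1 had medians of 23489 (null) and 23671 (het) UMIs, and cells without it 2401 (null) and 2225 (het) UMIs. In mesenchyme a Foxa1 UMI was found in 0.566% (null) and 0.874% (het) of cells and a Foxa2 UMI in 1.13% (null) and 1.12% (het). Unlike Nkx2-1, the forkhead genes had higher CPM in the few proximal cells than in distal cells. Foxa1 had 124 (null) and 70.5 (het) CPM in proximal cells and 34.9 (null) and 41.0 (het) CPM in distal cells. Foxa2 had 150 (null) and 108 (het) CPM in proximal cells and 76.6 (null) and 77.6 (het) CPM in distal cells. With a het mother the intervals of the 8 proximal cells overlapped those of distal cells for both genes.

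Tbx4 and Tbx5 were mesenchymal. In the E14.5 mesenchyme gate, with 2122 (null) and 2404 (het) cells, Tbx4 had 106 CPM (102 to 110) with a null mother and 82.0 CPM (78.7 to 85.4) with a het mother. Tbx5 had 134 CPM (129 to 138) with a null mother and 106 CPM (102 to 110) with a het mother. For both genes the intervals of the libraries do not overlap, and the null-mother library was higher. Mesenchyme held 93.4% (null) and 92.2% (het) of the Tbx4 UMIs and 93.6% (null) and 91.8% (het) of the Tbx5 UMIs. Smooth muscle cells within that gate, 393 (null) and 438 (het) of them, had 98.5 (null) and 75.8 (het) CPM of Tbx4 and 141 (null) and 122 (het) CPM of Tbx5. In epithelium, which should lack them, Tbx4 had 0.615 (null) and 0.700 (het) CPM and Tbx5 0.790 (null) and 0.560 (het) CPM.

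The T-box genes differed outside the lung mesenchyme. Heart muscle cells, 29 (null) and 66 (het) in number, had 55.2 (null) and 78.9 (het) CPM of Tbx5 [12 (null) and 29 (het) UMIs] and only 4 (null) and 2 (het) UMIs of Tbx4. TBX5 is a heart factor as well as a lung one. Within mesenchyme, Tbx5 was detected in 76.4% (null) and 75.2% (het) of cells with a Tbx4 UMI and in 37.9% (null) and 31.9% (het) of cells without one. Here too depth moved along, with medians of 15851 (null) and 17058 (het) UMIs in cells with Tbx4 and 2630 (null) and 2922 (het) UMIs in cells without. In epithelium a Tbx5 UMI was found in 1.60% (null) and 1.06% (het) of cells. In the E18.5-labelled libraries the mesenchyme gate held 67 (null) and 97 (het) cells, with 0 (null) and 1 (het) UMIs of Tbx4 and 2 (null) and 0 (het) UMIs of Tbx5. With the 0 set at a floor of 3 counts in the library, Tbx4 was at least 11.6-fold lower at E18.5 with a null mother and Tbx5 at least 15.8-fold lower with a het mother. Among all genes in this gate, 56.2% (null mother) and 55.3% (het mother) passed 1.5-fold between the ages. The mesenchymal cells of the E18.5-labelled libraries thus had few or no UMIs of the T-box pair.

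Hnf4a marked the hepatocytes of the E18.5-labelled libraries. The hepatocyte gate held 1985 (null) and 683 (het) cells, in which Hnf4a had 69.4 CPM (65.5 to 73.5) with a null mother and 72.1 CPM (64.6 to 80.3) with a het mother. A UMI was found in 40.5% (null) and 36.2% (het) of hepatocytes, at median depths of 6416 (null) and 4917 (het) UMIs, and in 0.892% (null) and 0.188% (het) of neutrophil-lineage cells, at 6968 (null) and 4692.5 (het) UMIs. Hepatocytes held 77.1% (null) and 69.4% (het) of its UMIs. The epithelium gate of the het-mother library, 50 cells, had 66.1 CPM of Hnf4a (46.3 to 91.5), and 26 of those 36 UMIs lay in 13 cells with at least 2 gut markers. In the null-mother library that gate had 25 cells, none with 2 gut markers, and 3 UMIs of Hnf4a.

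Prox1, a homeobox gene of hepatoblasts and of lymphatic endothelium, had 53.6 (null) and 54.7 (het) CPM in hepatocytes, but more in the small E18.5-labelled epithelium gate, with 133 CPM (null; 88.3 to 192; 28 UMIs) and 125 CPM (het; 97.0 to 158; 68 UMIs). Of those epithelial cells, 18 of 25 (null) and 44 of 50 (het) had at least 2 of 5 bile duct markers, a list that shares Krt19 and Epcam with the epithelium gate and that 522 of 564 (null) and 335 of 378 (het) epithelial cells at E14.5 passed as well, so the count does not mark bile duct. Hhex was also high there, at 171 (null) and 80.8 (het) CPM, and 8 of 25 (null) and 14 of 50 (het) cells had UMIs of both genes. Foxa2 had 21.8 (null) and 17.9 (het) CPM and Foxa1 4.49 (null) and 4.95 (het) CPM in hepatocytes. Among hepatocytes with an Hnf4a UMI, 42.7% (null) and 35.2% (het) had Prox1 and 70.9% (null) and 57.5% (het) had Cebpa, against 23.7% (null) and 22.5% (het), and 46.0% (null) and 35.6% (het), of those without Hnf4a. The cells with Hnf4a were deeper, with medians of 10432 (null) and 8599 (het) UMIs against 4487 (null) and 3493.5 (het) UMIs. Neutrophil-lineage cells had a Prox1 UMI in 0.474% (null) and 0.295% (het) of cells.

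Hhex was the most widely read factor at E18.5. Hepatocytes held only 15.0% (null) and 6.90% (het) of its UMIs, with 44.8 (null) and 62.9 (het) CPM, and neutrophil-lineage cells held 34.8% (null) and 37.2% (het). Among gates of at least 50 cells in both libraries, endothelium led with 88.4 CPM (null; 74.2 to 104) and 119 CPM (het; 101 to 138), then B-lineage cells with 79.6 (null; 73.6 to 86.0) and 97.4 CPM (het; 90.4 to 105). Monocytes had 70.5 (null) and 67.9 (het) CPM, and the neutrophil lineage 61.1 (null) and 68.0 (het) CPM. Endothelium and B lineage overlapped in their intervals in both libraries, so their order is not resolved. Macrophages had 37.6 (null) and 41.1 (het) CPM, megakaryocytes 17.0 (null) and 24.0 (het) CPM, and erythroid cells 1.65 (null) and 1.84 (het) CPM. At E14.5 endothelium was first, with 120 (null) and 93.7 (het) CPM, and held 70.9% (null) and 66.5% (het) of the Hhex UMIs. HHEX is known in blood precursors, B cells and endothelium besides the liver bud.

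Cebpa followed hepatocytes and myeloid cells. It had 126 CPM (null; 120 to 131) and 115 CPM (het; 105 to 125) in hepatocytes, where 56.1% (null) and 43.5% (het) of cells had a UMI, or 23.2% (null) and 20.7% (het) at 2000 UMIs per cell. In B-lineage cells, at median depths of 2492 (null) and 2146 (het) UMIs, it was 1.26% (null) and 0.487% (het). Basophil and mast cells had 162 CPM (115 to 223) in 42 cells with a null mother and 194 CPM (158 to 235) in 79 cells with a het mother, and their interval lay above that of hepatocytes with a het mother but overlapped it with a null mother. Macrophages had 42.3 (null) and 64.9 (het) CPM, monocytes 38.6 (null) and 37.6 (het) CPM, the neutrophil lineage 20.9 (null) and 13.2 (het) CPM, B-lineage cells 3.82 (null) and 1.79 (het) CPM and erythroid cells 2.33 (null) and 0.662 (het) CPM. C/EBPα drives the commitment of progenitors to granulocytes and falls as they mature. Cells led by the azurophil granule genes Elane, Mpo and Prtn3, a split chosen after values were seen, had 46.7 (null) and 39.9 (het) CPM, and later neutrophil-lineage cells 6.39 (null) and 4.11 (het) CPM. Among E14.5 gates of at least 50 cells the highest level was in macrophages, with 65.7 (null) and 69.6 (het) CPM. Epithelium followed with 15.1 (null) and 10.9 (het) CPM. Monocytes had 29.7 CPM (14.2 to 54.6; 10 UMIs) in 13 cells with a null mother and 0 UMIs in 1 cell with a het mother.

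**Figure D3:**
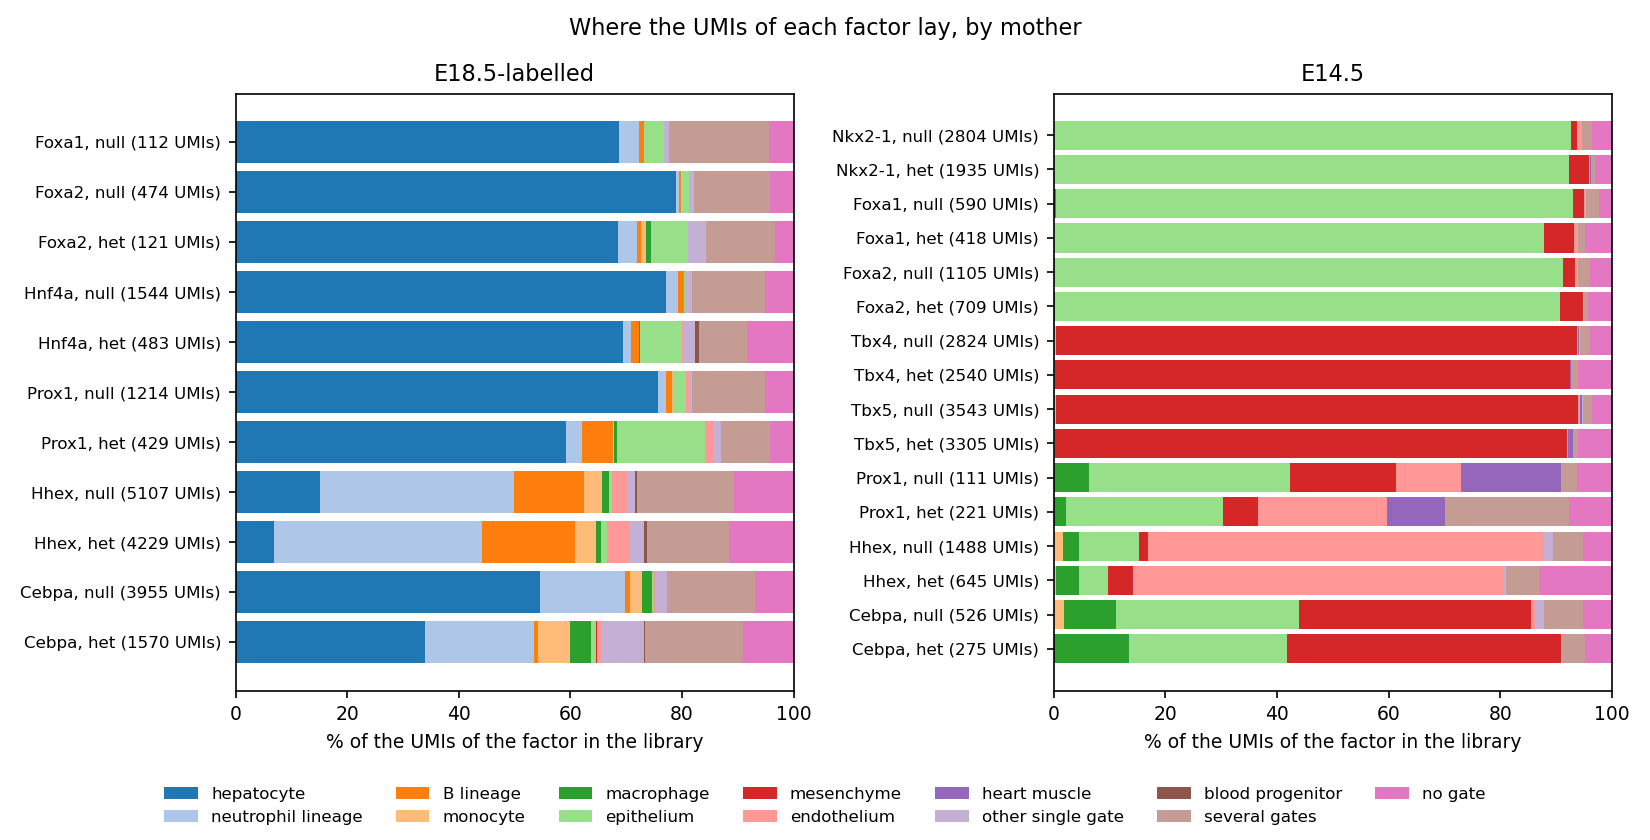
Share of the UMIs of each factor (horizontal axis, %) that lay in each marker gate, for factors with at least 50 UMIs in the library; the null-mother bar stands above the het-mother bar. At E18.5 hepatocytes hold 59.2% to 78.9% of the UMIs of Foxa1, Foxa2, Hnf4a and Prox1 but 15.0% or less of those of Hhex, and at E14.5 single gates hold 87.8% or more of the UMIs of the 5 lung factors.

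Genes whose pattern over 31 library-and-gate points was closest to each factor were named by Pearson correlation of log2(CPM + 1), as a description of points that share libraries and depth. Nkx2-1 was closest to Irx1 (0.984), Shh (0.969) and Cldn18 (0.969), and Hnf4a to A1cf (0.976) and Aadac (0.975). Foxa1 was closest to Mal2 (0.951), Myo5c (0.945) and Cym (0.933), and Foxa2 to Mal2 (0.952), Esrp2 (0.937) and Crb3 (0.935). For Tbx4 they were Tbx3os1 (0.952), Unc5c (0.945) and Hoxb6 (0.944), and for Tbx5 Crh (0.924), Foxl1 (0.923) and Myocd (0.917). The remaining factors had looser neighbours. Prox1 was closest to Adora1 (0.848), its overlapping antisense gene Prox1os (0.848) and Pkp2 (0.834), Hhex to Sigirr (0.854), Mfsd13a (0.846) and Arhgap27 (0.837), and Cebpa to Fam46a (0.878), Ccl9 (0.862) and Fam129a (0.838). Between members the closest pairs were Foxa1 with Foxa2 (0.923) and Tbx4 with Tbx5 (0.884). Nkx2-1 followed with Foxa1 (0.804) and with Foxa2 (0.732), and then Hnf4a with Prox1 (0.684).

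The mother's genotype went with large differences over whole E18.5-labelled libraries. By total UMIs the null-mother library had higher Foxa2 (ratio 3.25, 2.66 to 4.00), Foxa1 (2.81, 1.89 to 4.29), Hnf4a (2.65, 2.39 to 2.94), Prox1 (2.35, 2.10 to 2.63) and Cebpa (2.09, 1.97 to 2.22). Hhex had a ratio of 1.00 (0.961 to 1.04). So 5 of 6 measured members were past 1.5-fold and higher and 0 were lower, while 15.7% of all 13627 genes measured passed 1.5-fold in either direction, 12.1% higher and 3.60% lower. Of 20 other liver transcription factors, all measured, 15 were higher and 0 lower, with a median log2 ratio of 0.67 against 0.08 over all genes. Hepatocytes were 12.0% of cells (11.5 to 12.5) in the null-mother library and 4.01% (3.72 to 4.32) in the het-mother library, a share that moved the same way. Over whole libraries, fewer cells of a type and less RNA per cell cannot be told apart.

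Within hepatocytes the members were close between the mothers. Hnf4a had a ratio of 0.962 (0.852 to 1.09), Prox1 0.980 (0.852 to 1.13), Cebpa 1.09 (0.994 to 1.20) and Foxa2 1.22 (0.960 to 1.57). Hhex was lower with a null mother, at 44.8 CPM against 62.9 CPM with a het mother and a ratio of 0.713 (0.622 to 0.818), and its interval excludes 1. None of the 5 measured members passed 1.5-fold, where 13.8% of all genes did. The median log2 ratio of all genes in this gate was 0.18, and scaling by TMM, which takes out part of such a shift, gave 0.893 for Hnf4a, 0.909 for Prox1, 1.01 for Cebpa, 1.13 for Foxa2 and 0.661 for Hhex, past 1.5-fold. As a mean over single cells, in which shallow and deep cells count alike, the Hhex ratio was 0.968.

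Other liver factors and the genes they act on did not all follow. Of all genes in hepatocytes, 12.1% were past 1.5-fold and higher and 1.72% lower. Of 16 measured liver transcription factors 2 were higher and 1 lower, with a median log2 ratio of 0.02. Gata4, a factor of endoderm and of liver mesenchyme, had 88 UMIs with a null mother and 10 with a het mother (ratio 2.38, 1.24 to 5.14), and Cebpb, an acute-phase factor, had a ratio of 1.52 (1.31 to 1.76). Nr1i3, a xenobiotic receptor, was lower at 0.397 (0.279 to 0.568), and Nr5a2, a bile acid regulator, had 0.748. Of 13 measured known targets, 4 were lower and 0 higher, with a median of -0.07 against 0.18 for all genes. The gluconeogenic genes Pck1 (36 UMIs with a null mother and 86 with a het mother; ratio 0.113, 0.0746 to 0.169) and G6pc [101 (null) and 195 (het) UMIs; 0.140, 0.109 to 0.179] were lowest, and Ttr (1.23) and Apoa2 (1.21), which make plasma proteins, were highest. Alb, Apoa1, Apob and Ttr of that list also set the hepatocyte gate.

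Liver RNA was present in other gates too. All 6 measured liver targets were higher with a null mother in the neutrophil lineage (median log2 ratio 1.34) and in B-lineage cells (1.38), beside 5.77% of all genes in the neutrophil lineage and 3.00% in B-lineage cells. Alb, the serum albumin gene of hepatocytes, had 8730 UMIs with a null mother and 2800 with a het mother in the neutrophil lineage. The part that free liver RNA has in the low levels of Hnf4a and Prox1 outside hepatocytes was not tested.

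In blood cells of the E18.5-labelled libraries, Cebpa in the neutrophil lineage was higher with a null mother, at 20.9 CPM against 13.2 CPM with a het mother (ratio 1.58, 1.38 to 1.82), in a gate where 8.32% of genes passed 1.5-fold. It was 1.48 with cells of several gates kept, and also 1.48 when cells below 1000 genes or with 10% or more of mitochondrial UMIs were left out. The azurophil-led cells, which carry more Cebpa, made up 5.25% of cells with a null mother and 2.94% with a het mother. Within them the ratio was 1.17 (1.00 to 1.37; 5.29% of genes past 1.5-fold), and within later cells it was 1.55 (1.15 to 2.11; 6.97%), or 1.49 under that filter on genes and mitochondrial UMIs. Cebpa in macrophages was lower, at 42.3 CPM with a null mother and 64.9 CPM with a het mother (0.652, 0.456 to 0.935; 11.4%), yet as a mean over cells it was 1.12. In monocytes Cebpa had a ratio of 1.03 and Hhex 1.04, with 8.27% of genes past 1.5-fold. Of the 9 measured partner genes in the neutrophil lineage, 1 was higher and 0 lower: Gfi1, a repressor needed to form neutrophils, had 1.56 (1.41 to 1.71), while Irf8 had 1.32, Spi1 1.07 and Cebpe 1.05.

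Hhex was lower with a null mother in B-lineage cells, at 79.6 CPM against 97.4 CPM with a het mother (0.817, 0.733 to 0.911), in endothelium, at 88.4 CPM against 119 CPM with a het mother (0.745, 0.590 to 0.939), and slightly in the neutrophil lineage (0.899, 0.839 to 0.962). None of these passed 1.5-fold, which 4.88% of genes did in B-lineage cells and 6.57% in endothelium. In erythroid cells, where 15.4% of genes passed, the ratio was 0.900 (0.542 to 1.47; 27 UMIs with a null mother and 50 with a het mother), but 1.58 with cells of several gates kept and 1.46 as a mean over cells. Of the endothelial cells, 344 of 396 (null) and 351 of 435 (het) passed the liver sinusoid gate. Among the 8 measured partner genes in B-lineage cells Lmo2 was higher (1.57, 1.29 to 1.93), Gfi1 had 1.18, and Myb (0.738) and Pax5 (0.907), factors of early and committed B cells, were lowest.

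At E14.5 the epithelial lung factors were higher over the whole null-mother library, with ratios of 1.28 for Nkx2-1 (1.21 to 1.36), 1.24 for Foxa1 (1.10 to 1.41) and 1.37 for Foxa2 (1.25 to 1.51). Epithelial cells were 11.6% of cells with a null mother and 7.63% with a het mother. Tbx4 (0.981, 0.929 to 1.04) and Tbx5 (0.946, 0.901 to 0.992) were close to 1. Hhex (2.03, 1.85 to 2.24) and Cebpa (1.69, 1.46 to 1.96) were past 1.5-fold and higher, and Prox1 (0.443, 0.349 to 0.559) lower, which made 3 of 8 measured members, beside 11.7% of all genes. As a mean over cells the Cebpa ratio was 1.37.

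Within the epithelium the lung factors lay on the other side of 1 or at it. Nkx2-1 had a ratio of 0.912 (0.859 to 0.970), Foxa1 0.934 (0.817 to 1.07) and Foxa2 0.984 (0.890 to 1.09). Only the interval of Nkx2-1 among these 3 excludes 1. Of 6 measured members 1 (Hhex) was past 1.5-fold higher and 1 (Prox1) lower, beside 6.14% of genes. Hhex and Prox1 each reached 50 UMIs only in the library where the gene was higher. This rule favours differences at low counts, for members and for all genes alike. Of 26 other lung transcription factors 19 were measured, of which 2 were higher and 0 lower, with a median log2 ratio of -0.10 against -0.02 over all genes. Foxj1, the factor of ciliated cells, had 106 UMIs with a null mother and 2 with a het mother (ratio 33.2, 8.97 to 278), and Klf5 had 1.96 (1.69 to 2.27). Sox9, of the distal tips, had 0.722, and Meis2 0.756.

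Known targets of the lung factors differed far more than the factors. In the epithelium 9 of 11 measured targets were higher with a null mother and 0 lower, with a median log2 ratio of 1.30, where 4.56% of all genes were higher. Napsa, a protease that processes surfactant protein, had 219 UMIs with a null mother and 8 with a het mother (17.2, 8.55 to 40.2), and Scgb3a2, a secretoglobin of airway cells, had 2466 (null) and 284 (het) UMIs (5.44, 4.81 to 6.17). Bmp4 (1.14) and Abca3 (1.48) were the 2 that stayed under 1.5-fold. In distal lung cells alone, 8 of 10 were higher, with a median of 1.05, beside 5.14% of genes past 1.5-fold and 3.49% higher. Sftpc and Napsa are also markers of the distal gate.

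The liver-named members in the E14.5 epithelium were low but unequal. Hhex had 160 UMIs with a null mother and 34 with a het mother, or 14.05 (null) and 4.76 (het) CPM (ratio 2.95, 2.03 to 4.41). In the null-mother library 3 epithelial cells with at least 2 thyroid markers held 52 of these Hhex UMIs, with 39 UMIs of Tg, 41 of Pax8, 32 of Nkx2-1 and 1 of Sftpc, and no such cell was found in the het-mother library. NKX2-1, HHEX and PAX8 are together known as thyroid factors. Without these cells the Hhex ratio was 2.01 (1.35 to 3.04), and in distal lung cells it was 1.59 (1.04 to 2.48). Cebpa, which takes part in the maturation of lung epithelium, had 15.1 CPM with a null mother and 10.9 CPM with a het mother (1.38, 1.05 to 1.83), but as a mean over cells the ratio was 0.644.

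Prox1 was lower at E14.5 in both epithelium and endothelium. In the epithelium it had 40 UMIs with a null mother and 62 with a het mother, or 3.51 (null) and 8.69 (het) CPM (0.404, 0.265 to 0.611). Cells with at least 2 neuronal or neuroendocrine markers, 5 in each library, held 9 (null) and 17 (het) of these UMIs. In endothelium it had 13 UMIs with a null mother and 51 with a het mother, or 1.48 (null) and 11.1 (het) CPM (0.133, 0.0661 to 0.247), where 5.97% of genes passed 1.5-fold. In both gates Prox1 reached the minimum of 50 UMIs only in the het-mother library. The lymphatic gate held 6 (null) and 9 (het) cells, which carried 4 of the 13 Prox1 UMIs with a null mother and 45 of the 51 with a het mother. A Prox1 UMI was found in 1 of the 6 (null) and 8 of the 9 (het) cells. As shares these were 16.7% (null; 0.421 to 64.1) and 88.9% (het; 51.8 to 99.7), with overlapping intervals. The Prox1 level there was 60.9 CPM (16.6 to 156) with a null mother and 437 CPM (319 to 585) with a het mother. The CPM intervals do not overlap, but they take UMIs as independent, and the 4 null-mother UMIs lay in 1 cell. Of 6 measured lymphatic genes in endothelium 1 was lower and 0 higher: Ccl21a, a chemokine of lymphatic vessels, had 0.138 (0.118 to 0.161), Mmrn1 0.703, Sox18 0.9504 and Lyve1 1.14. Ccl21a, Mmrn1 and Lyve1 are also markers of the lymphatic gate, so their levels bear on which cells entered it. Lyve1 is a liver sinusoid marker too, a list that admits cells to the endothelium gate. Heart muscle had 20 (null) and 23 (het) Prox1 UMIs in 29 (null) and 66 (het) cells. These were 92.0 CPM (null; 56.2 to 142) and 62.6 CPM (het; 39.7 to 93.9), beside 53.6 (null) and 54.7 (het) CPM in E18.5-labelled hepatocytes.

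In E14.5 mesenchyme Tbx4 had a ratio of 1.30 (1.23 to 1.37) and Tbx5 1.26 (1.20 to 1.32), higher with a null mother though neither passed 1.5-fold. Mesenchymal cells were 43.8% of cells with a null mother and 48.5% with a het mother, which ran against the ratio within the gate. Cebpa was higher, at 8.82 CPM with a null mother and 4.73 CPM with a het mother (1.87, 1.499 to 2.33), and as a mean over cells it had 1.34. Nkx2-1, an epithelial gene, was lower at 27 (null) and 71 (het) UMIs (0.437, 0.270 to 0.690), and with cells of several gates kept its ratio was 0.963. It reached the minimum of 50 UMIs only in the het-mother library. In this gate 5.58% of genes passed 1.5-fold. In smooth muscle, where 5.84% did, Tbx4 had 1.30, Tbx5 1.16 and Cebpa 1.93.

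The other lung transcription factors mostly stayed close to 1 in mesenchyme. Of 26 listed 19 were measured, of which 0 were higher and 3 lower, with a median log2 ratio of -0.08, beside 2.47% of all genes higher and 3.11% lower. Gata4 (0.381, 0.264 to 0.539) and Sox9 (0.533, 0.442 to 0.641), which serves cartilage, were lowest, and Tbx2 (1.24) and Nfib (1.19) were highest. Among 8 measured targets 2 were higher and 1 lower. Wnt2b (0.575, 0.389 to 0.839) and Wnt2 (0.808), WNT ligands of lung mesenchyme, were lowest, and Sftpc (3.72) and Ager (1.59), genes of epithelium, were highest. Sftpc RNA in mesenchyme moved with its level in the epithelium, and its part in these counts was not tested.

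Hhex in E14.5 endothelium was higher with a null mother, at 120 CPM against 93.7 CPM with a het mother (1.28, 1.14 to 1.43), with a UMI in 58.4% (null) and 50.7% (het) of cells. At 2000 UMIs per cell the shares were 21.4% (null) and 20.1% (het). In mesenchyme, which should lack it, 1.18% (null) and 1.16% (het) of cells had a UMI, and the median depths were 12450 (null) and 7831 (het) UMIs in endothelium and 11455.5 (null) and 10320.5 (het) UMIs in mesenchyme.

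**Figure D4:**
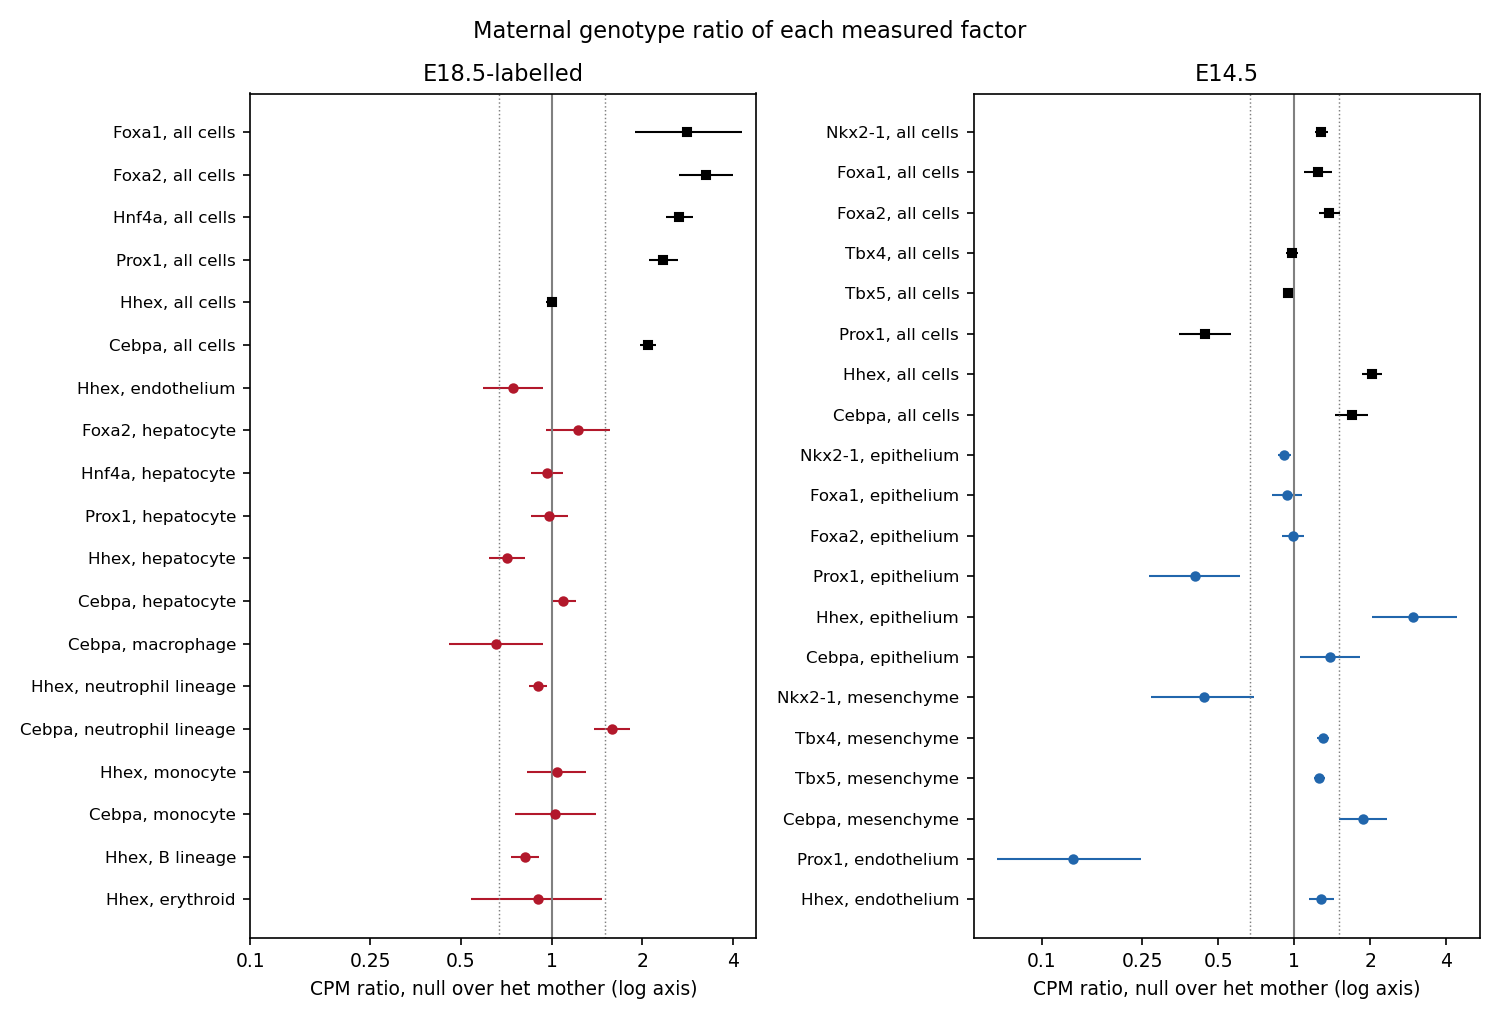
CPM ratio, null over het mother, of each measured factor over all cells (black squares) and within marker gates (coloured points), on a log axis with exact 95% counting intervals; dotted lines mark 1.5-fold. At E18.5 the whole-library ratios of 5 factors lie between 2.09 and 3.25 and those within hepatocytes between 0.713 and 1.22, and at E14.5 Nkx2-1, Foxa1 and Foxa2 lie between 1.24 and 1.37 over all cells and between 0.912 and 0.984 in epithelium.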

How the data were processed

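The deposited table holds UMI counts per gene and cell, made by the authors with Cell Ranger 3.0.0 and Seurat 4.3.0 on mm10, per the submitters' processing notes. Counting by strand, cell filters and doublet removal are not given in the sources used here, and no doublet caller was run here. The deposited gene and cell lists carry each other's names and were read by content. Counts were summed per library and marker gate and divided by total UMIs to give CPM. The members and gene lists were chosen with earlier results of these data known, gate thresholds were set after marker shares were seen, and the azurophil split was added after seeing the data.

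Cells entered a gate as described above, from 28 marker lists. A ratio of 2 libraries has an exact conditional binomial interval. Genes under 50 UMIs in the library of higher CPM were left unmeasured, and log2 ratios use a pseudocount of 1 CPM. A gene of low counts can thus enter only through the library where it is high. That favours calls past 1.5-fold, in the shares over all genes as well. With 1 library per group no test was made. Thinned shares are expected shares at 2000 UMIs per cell, with shallower cells left out. The rule for named genes took all 9 members, the 3 genes most like each among genes with at least 200 UMIs, and of each list the 2 measured genes farthest from 0 in each direction. One of the genes most like Hnf4a is not reported here. Alb in the neutrophil lineage was named after its values were seen. On simulated E14.5 epithelium, 99.0% of 197 genes changed 2-fold were recovered among 9600 measured genes. There 0.744% of unchanged genes passed 1.5-fold, and the intervals covered 95.6% of true values. The simulated sums were independent Poisson counts, which the intervals assume, and changed genes were drawn from those expected to reach 50 UMIs. The simulation thus checks the code and says nothing of spread between cells or libraries. Alternatives changed the scaling (edgeR 4.0.16 for TMM factors, run in R 4.3.3), the count minimum, the cells and the gates. Python 3.11.15 with numpy 2.4.6, pandas 2.3.3, scipy 1.17.1 and matplotlib 3.10.9 was used.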

Additional observations from a re-analysis of the deposited data

Results flagged for a closer look

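The ratio of Hhex in endothelium, null over het mother, lay on opposite sides of 1 at the 2 ages. It was 0.745 (0.590 to 0.939) in the E18.5-labelled libraries and 1.28 (1.14 to 1.43) at E14.5, and the difference between the ages was not tested. Of the E18.5-labelled endothelial cells 344 of 396 (null mother) and 351 of 435 (het mother) passed the liver sinusoid gate, against 3 cells in each E14.5 library. The part of that difference in cell content was not tested.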

How the results depend on the processing

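No paired analysis was possible because each group had 1 library. Of 51 member ratios 18 were past 1.5-fold. Over whole libraries 5 of 6 were higher at E18.5, and 2 of 8 were higher and 1 lower at E14.5. There 15.7% (E18.5) and 11.7% (E14.5) of all genes passed. The other ratios include gates nested in larger ones, so the same cells count more than once. Within gates, 4.88% (B lineage, E18.5) to 15.4% (erythroid, E18.5) of all genes passed. Among 523 recomputed ratios 9 lost that call (5 higher, 4 lower), 10 gained it (5 higher, 5 lower) and 0 took the opposite call. Ratios also moved without a change of call. As a mean over cells, 16 of 51 ratios moved outside the interval of their main value, 1 reversed and 34 stayed. Of the ratios measured in male cells 10 moved outside it and 25 stayed. In each other setting 6 or fewer moved. The 523 include 51 ratios with a minimum of 10 UMIs and 35 with a minimum of 200 UMIs. Those could not change, since a minimum sets only which ratios are kept. Cebpa in E18.5-labelled macrophages had a ratio of 0.652 in the sums over cells but 1.12 as a mean over cells, 0.670 without haemoglobin in the totals and 0.707 without the cells of highest UMIs. Hhex in hepatocytes passed 1.5-fold lower with TMM scaling (0.661), median-of-ratios scaling (0.658), cells of at least 1000 genes and under 10% mitochondrial UMIs together (0.580) and male cells (0.626). Cebpa in the neutrophil lineage had 1.48 with that filter on genes and mitochondrial UMIs or with cells of several gates kept, and 1.49 in later cells with that filter. Hhex in erythroid cells had 1.58 with cells of several gates kept, and Cebpa over all E14.5 cells 1.37 as a mean over cells. At E14.5, Cebpa in distal lung cells had 1.55 with TMM scaling, 1.54 with median-of-ratios scaling and 1.58 without the cells of highest UMIs. Over the major gates, 1 member ratio was past 1.5-fold higher at E18.5, and 7 were with a minimum of 10 UMIs or with cells of several gates kept. There 1 ratio was lower, against 2 with TMM scaling, median-of-ratios scaling, a minimum of 10 UMIs or the filter on genes and mitochondrial UMIs, and 0 without haemoglobin, as a mean over cells, with a minimum of 200 UMIs or without the cells of highest UMIs. At E14.5, 2 were higher, against 1 as a mean over cells or with a minimum of 200 UMIs and 4 with a minimum of 10 UMIs. There 3 were lower (Prox1 in epithelium and in endothelium, Nkx2-1 in mesenchyme), against 0 with a minimum of 200 UMIs or in male cells. Each of the 3 reached 50 UMIs only in the het-mother library, where it was higher, and the minimum favours such calls. Other minimums changed only which ratios were measured. In male cells the 3 lower E14.5 ratios were no longer measured. With cells of several gates kept at E18.5, Cebpa in the neutrophil lineage fell below 1.5-fold and Hhex in erythroid cells passed it. The rest of those 7 higher ratios were not measured in the main values. Why other ratios crossed 1.5-fold was not tested. The gate of highest CPM was kept by 3 of 5 members in the E18.5-labelled het-mother library as a mean over cells. Of the 27 nearest genes 9 were within the 10 nearest by Spearman correlation. Low UMI numbers limit the ratios with wide intervals.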
